A study of Mus musculus with 6 samples.

Results

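The fast-fibre muscle genes are 10 genes that encode contractile proteins of fast-twitch skeletal muscle fibres, and their transcripts were followed in RNA-seq libraries of inguinal fat. They are the myosin heavy chains Myh1, Myh2 and Myh4, the myosin light chains Mylpf and Myl1, the troponins Tnnc2, Tnni2 and Tnnt3, the calcium pump Atp2a1 and the Z-disc protein Actn3. The genes were taken by symbol from the deposited values, and all 10 were found among 55573 genes listed. All 10 were also among the 16868 genes with enough reads to be tested between the genotypes. The list was drawn up with the difference between the genotypes in these libraries known, so the values of the 10 genes are a description and no p is given for them.

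RNA was isolated from inguinal white adipose tissue (iWAT), a subcutaneous fat depot of the groin, of 3 Wt and 3 mutant male mice, with 1 library per mouse. All 6 mice were untreated, were on the C57BL/6NTac background, were fed regular chow and were 3 months old. The mutant mice were homozygous for a knock-in of the Thra gene, which changes a pair of lysines of thyroid hormone receptor alpha to THRA K283Q/K288R so as to take away a site of SUMO conjugation. The knock-in is global and carries no tissue-specific promoter, so muscle carried the mutation as well as fat, and the Wt mice were bred in the same facility with no mention of whether they were littermates. The question put to the RNA-seq was how gene expression in the fat differs between mutant and Wt mice. Values are normalized CPM, that is, the reads of a gene scaled to the size of the library with a further factor for each mouse, and 3 values in a row are those of mouse 1, mouse 2 and mouse 3.

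The tissue label was borne out by the fat markers, since Adipoq, the hormone adiponectin, lay between 1332 and 2219 normalized CPM and the lipid droplet protein Plin1 between 1307 and 2317 in the 6 mice. Skeletal muscle transcripts were nevertheless abundant in all 6 libraries, and the 10 fast-fibre genes alone took 1.26% to 3.02% of the reads of a mouse. Of 6 genes of heart muscle, Nppb was listed at 0 in every mouse, Nppa, Myl7 and Myh6 were at 0.681 or below, and Tnni3 (1.62 to 4.08) and Myl4 (7.53 to 15.5) were higher. In bulk RNA, fewer muscle fibres in a dissection cannot be told apart from less RNA per fibre. Nor do the sources used here say which muscle, or how much of it, came with each dissection. Its part in the differences between the genotypes was not tested. Reads on genes numbered 19607423 to 24228381 per mouse, and a count of 3 reads corresponded to 0.126 to 0.157 normalized CPM, a floor that covers counting error only. Over all tested genes, limma called 1368 genes at a false discovery rate (FDR) of 0.05, which is 8.11%, with 928 higher (5.5%) and 440 lower (2.61%) in the mutant mice. Calls that were higher made up 67.8% of the total, and 79.4% when the reads were scaled by library size only.

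Skeletal muscle fibres differ in speed largely through the isoforms of their contractile proteins. Slow (type I) fibres carry the myosin heavy chain Myh7, whereas fast fibres carry Myh2 (type IIa), Myh1 (type IIx) or Myh4 (type IIb), in order of rising speed and falling endurance. Light chains, troponins, the calcium pump and alpha-actinin likewise exist as fast and slow or shared forms encoded by separate genes. Thyroid hormone is a textbook regulator of this fibre make-up. Inguinal fat lies against the muscles of the body wall and hind limb.

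The 3 adult fast myosin genes lie head to tail on the plus strand of chromosome 11 in the build GRCm38. Myh2 spans chr11:67171027-67197517, Myh1 spans chr11:67200052-67224575 and Myh4 spans chr11:67238029-67260446 in GENCODE M21. The other members lie apart from them, Mylpf at chr7:127208890-127214298, Tnni2 at chr7:142441808-142444410, Tnnt3 at chr7:142498836-142516009, Atp2a1 at chr7:126445858-126463108, Tnnc2 at chr2:164777161-164779967, Myl1 at chr1:66924295-66945404 and Actn3 at chr19:4861216-4877909. Promoter windows from RefSeq on GRCm38.p6, of 250 bases before and 50 bases from the annotated start on, were matched by symbol for 7 of the 10 genes. Those of the 3 myosin genes are shown because these genes are neighbours with closely alike coding sequences whose levels differed most in their behaviour between the genotypes. All 3 read 5′ to 3′ on the plus strand, and the capitals mark the longest run common to all 3 windows and the last TATAAA in each.
Myh2, chr11:67170777-67171076: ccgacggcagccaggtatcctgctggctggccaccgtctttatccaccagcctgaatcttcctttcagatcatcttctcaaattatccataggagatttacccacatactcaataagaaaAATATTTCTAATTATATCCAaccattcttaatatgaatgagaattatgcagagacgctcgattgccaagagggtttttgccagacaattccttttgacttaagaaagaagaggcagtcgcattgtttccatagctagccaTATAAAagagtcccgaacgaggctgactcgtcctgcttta
Myh1, chr11:67199852-67200151: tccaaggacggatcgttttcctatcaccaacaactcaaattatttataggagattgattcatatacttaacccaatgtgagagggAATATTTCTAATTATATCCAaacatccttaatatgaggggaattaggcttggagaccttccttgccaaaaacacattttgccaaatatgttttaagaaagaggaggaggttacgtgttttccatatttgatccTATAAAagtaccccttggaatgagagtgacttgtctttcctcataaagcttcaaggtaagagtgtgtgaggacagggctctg
Myh4, chr11:67237562-67237861: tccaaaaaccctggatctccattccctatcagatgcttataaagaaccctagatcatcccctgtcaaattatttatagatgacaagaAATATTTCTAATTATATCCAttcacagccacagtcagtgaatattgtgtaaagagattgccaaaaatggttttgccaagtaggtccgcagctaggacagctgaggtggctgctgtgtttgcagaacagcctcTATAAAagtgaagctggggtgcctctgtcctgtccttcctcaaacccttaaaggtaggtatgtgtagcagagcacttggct

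The run common to the 3 windows is 20 bases long and was in no other of the 32851 promoter windows. It lies at bases 121 to 140 of the Myh2 window, 86 to 105 of the Myh1 window and 88 to 107 of the Myh4 window. The last TATAAA lies at bases 219 to 224 of the Myh1 window and 220 to 225 of the Myh4 window, before the start, and at bases 261 to 266 of the Myh2 window, after it. Over the aligned bases, the Myh1 window was 73.0% identical to that of Myh2 and 66.3% to that of Myh4. Between the Myh2 and Myh4 windows the identity was 63.5%. Motifs were searched on both strands. The E-box CANNTG, bound by myogenic factors, occurred 3 times in the Myh4 window and in neither of the others, against 72.3% of all windows with at least 1. Its form CAGCTG, counted within the E-boxes, occurred once in the Myh4 window and is held by 16.3% of all windows. A MEF2 site was found once each for Myh1 and Myh4 and not for Myh2, against 3.19% of all windows. The thyroid hormone receptor half-site AGGTCA was in none of the 3 windows and in 1 of the 7 members' windows, that of Atp2a1, and is held by 16.3% of all windows. These are matches of letters in short windows and say nothing of binding.

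The coding sequences of the 3 myosins are closely alike, which bears on how reads are shared out among them. Myh1 was 91.1% identical to Myh2 and 90.2% to Myh4, and Myh2 was 88.2% identical to Myh4. Of 5820 coding bases aligned without a gap, 85.3% were the same in all 3 genes, and the longest stretch with no difference ran for 140 bases. Where they differ most within 1 exon, a window of 60 bases held 24 positions that are not shared by all 3, marked in capitals in the lines that follow.
Myh2, exon 29, chr11:67191348-67191407: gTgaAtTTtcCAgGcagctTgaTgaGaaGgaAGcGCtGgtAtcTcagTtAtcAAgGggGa
Myh1, exon 29, chr11:67217464-67217523: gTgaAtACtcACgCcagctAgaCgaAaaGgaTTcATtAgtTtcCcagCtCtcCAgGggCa
Myh4, exon 28, chr11:67254458-67254517: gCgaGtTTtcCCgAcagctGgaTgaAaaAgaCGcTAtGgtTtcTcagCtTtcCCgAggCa

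Of all 50-base stretches of the longest coding transcript, 67.9% of those of Myh1, 71.1% of those of Myh2 and 81.1% of those of Myh4 were in no transcript of another gene. The levels of the 3 myosins therefore depend in part on how the authors' counting divided shared reads. Mylpf, Tnni2 and Tnnt3 were free of this (no 50-base stretch shared), and Actn3 nearly so (99.9%). Only 45% of Tnnc2 was its own, because 592 exonic bases overlap Ube2c on the opposite strand, a gene whose mean level was 0.166 of that of Tnnc2. Atp2a1 shares 763 exonic bases with Rabep2 on the opposite strand, at 0.0362 of its level, and Myl1 shares stretches with the pseudogene Mylf-ps. Whether reads were counted by strand is not given in the sources used here, so overlapping reads cannot be told apart.

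Myh1, the type IIx myosin, had the widest difference between the genotypes of the 10 genes. In Wt mice 1, 2 and 3 its level was 31.1, 279 and 166 normalized CPM, and for mutant mice 1 to 3 it was 2405, 1986 and 2385. The lowest mutant mouse was 7.11 times the highest Wt mouse, and the groups did not overlap. The means were 159 ± 124 in Wt and 2259 ± 236 in mutant mice (SD, n = 3), a ratio of 14.2 and a log2 fold change of 4.31 ± 0.75 (SE, limma). The Wt mice spread over a range of 8.97 times, and the mutant mice over a range of only 1.21 times.

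Myh2, the type IIa myosin, differed in the same direction with fewer reads. It stood at 23.0, 172 and 57.0 normalized CPM for Wt mice 1 to 3 and at 439, 257 and 443 for mutant mice 1 to 3. Again Wt mouse 1 was lowest and no values overlapped, although the lowest mutant mouse was only 1.5 times the highest Wt mouse. The means were 83.9 ± 77.8 and 379.7 ± 107 (SD, n = 3), 4.53 times higher in the mutant, with a log2 fold change of 2.58 ± 0.69 (SE).

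Myh4, the type IIb myosin and the gene with the most reads of the 10 in every mouse, did not share this pattern. Its level was 11320.5, 9722 and 5081 normalized CPM for Wt mice 1 to 3 and 8855, 5278 and 9267 for mutant mice 1 to 3. The groups overlapped, with Wt mouse 3 and mutant mouse 2 the lowest and Wt mouse 1, the mouse with the least Myh1, the highest. The means were 8708 ± 3241 and 7800.1 ± 2194 (SD, n = 3), a ratio of 0.896 and a log2 fold change of -0.12 ± 0.49 (SE).

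**Figure D1:**
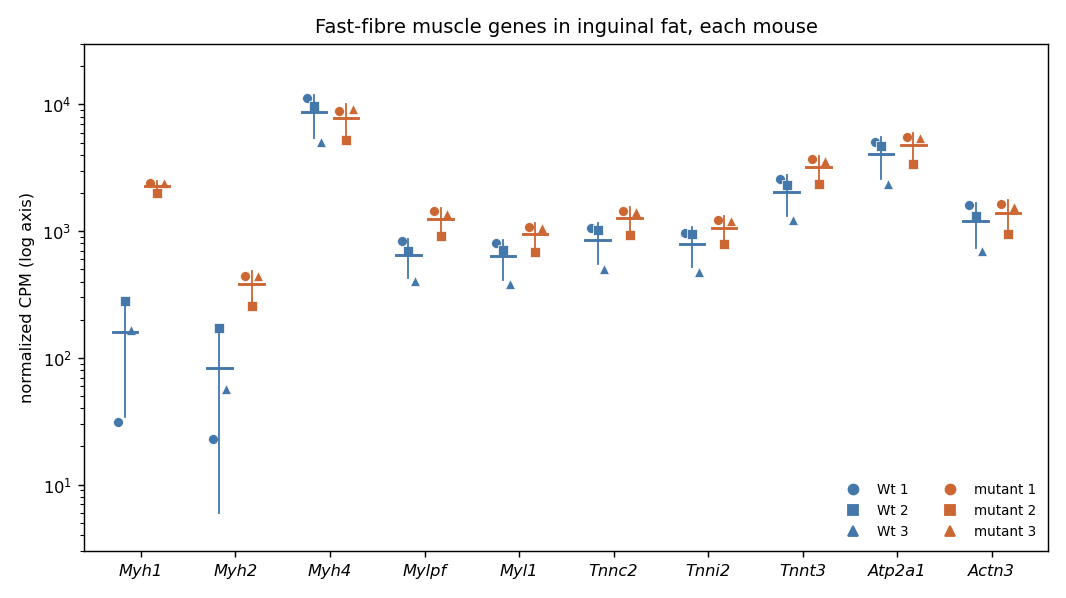
Normalized CPM of the 10 fast-fibre genes on a log axis, with 1 point per mouse (blue Wt, orange mutant), a horizontal bar at the mean and a vertical line of 1 SD either way. Myh1 and Myh2 of the mutant mice lie above those of all Wt mice, Myh4 of the genotypes overlaps, and in the other 7 genes Wt mouse 3 and mutant mouse 2 are the lowest of their genotypes.

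The fast myosin light chains were higher in the mutant on average, and without overlap for only 1 of them. Mylpf, the fast regulatory light chain, was at 833, 696 and 405 normalized CPM for Wt mice 1 to 3 and at 1445, 915 and 1371 for mutant mice 1 to 3. These values did not overlap, although the lowest mutant mouse was only 1.1 times the highest Wt mouse, and the log2 fold change was 0.98 ± 0.31 (SE). Myl1, the fast essential light chain, was at 808, 712 and 380.1 in the Wt and 1088, 679 and 1060.3 in the mutant mice, which gave a log2 fold change of 0.61 ± 0.33. Mutant mouse 2 lay below 2 of the 3 Wt mice, so the groups overlapped.

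The 3 fast troponins, which together form the calcium switch of the thin filament, behaved alike. Tnnc2, the calcium-binding subunit, was at 1053, 1018 and 501 normalized CPM for Wt mice 1 to 3 and at 1443, 931 and 1407 in the mutant mice, a log2 fold change of 0.61 ± 0.34 (SE). Tnni2, the inhibitory subunit, was at 960.0, 952 and 474 in the Wt and 1216, 789.7 and 1201 in the mutant mice, a log2 fold change of 0.47 ± 0.33. In both genes mutant mice 1 and 3 were above all Wt mice, and mutant mouse 2 was below Wt mice 1 and 2.

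Tnnt3, the subunit that anchors troponin to tropomyosin, was at 2588, 2301 and 1220.0 normalized CPM in the Wt and 3687, 2355 and 3564 in the mutant mice, a log2 fold change of 0.70 ± 0.36 (SE). Here mutant mouse 2 fell between Wt mice 1 and 2. Differences of the 3 troponins were thus of a size with the spread within a genotype, where the highest mouse was 1.54 to 2.12 times the lowest.

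After Myh4, the calcium pump and the Z-disc protein differed least. Atp2a1, the fast-fibre pump SERCA1 that returns calcium to the sarcoplasmic reticulum, was at 5043, 4741 and 2349 normalized CPM for Wt mice 1 to 3 and at 5524, 3419.5 and 5452 in the mutant mice. Actn3, which anchors actin filaments at the Z-disc of fast fibres, was at 1602, 1312 and 692 in the Wt and 1653, 953 and 1555 in the mutant mice. The log2 fold changes were 0.29 ± 0.41 for Atp2a1 and 0.25 ± 0.37 for Actn3 (SE), and the groups overlapped in both.

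Across the 10 genes the log2 fold change had a median of 0.61, against -0.05 over all tested genes. It was above 0 in 9 of 10, against 7332 of all 16868 tested genes. Values of Myh1, Myh2 and Mylpf did not overlap between the genotypes and were higher in the mutant, which held for 14.9% of all tested genes (15.7% were lower without overlap, 30.6% either way). Of the 10, limma called 1 gene higher, Myh1, and none lower, against 5.5% and 2.61% of all tested genes. At an unadjusted p under 0.05 there were 3 genes higher and none lower. Because this contrast chose the genes, nothing is read from those counts. No member was called by limma-voom, or by limma without Wt mouse 3, mutant mouse 2 or mutant mouse 3. There were 2 called by limma without Wt mouse 2 (Myh1 and Myh2) and 2 by the Wald test of DESeq2 (Myh1 and Mylpf). The log2 fold change of Myh4 ran from -0.47 to 0.14, and those of Atp2a1 and Actn3 from -0.06 to 0.52 and from -0.10 to 0.50, when 1 mouse was left out at a time.

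The make-up of the myosin heavy chains was compared within each mouse, as shares of their sum. Levels of different genes are comparable only per length, so each was divided by the summed length of its exons in kilobases. Myh1 made up 0.259%, 2.61% and 2.97% of the sum of Myh1, Myh2 and Myh4 per kilobase for Wt mice 1 to 3, and 19.8%, 25.5% and 19.0% for mutant mice 1 to 3. Myh2 made up 0.171%, 1.43% and 0.909% in the Wt and 3.22%, 2.93% and 3.14% in the mutant mice. Myh4 made up the rest, with 99.6%, 96.0% and 96.1% in the Wt and 77.0%, 71.6% and 77.9% in the mutant mice.

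No share overlapped between the genotypes. The sum of the 3 per kilobase did overlap, at 1890, 1684 and 879 normalized CPM per kilobase in the Wt and 1912, 1226 and 1978 in the mutant mice. On average Myh1 contributed 21.4 ± 3.55% in mutant and 1.95 ± 1.47% in Wt mice (SD, n = 3). The ratio of Myh4 to Myh1 per kilobase was 384, 36.8 and 32.4 in the Wt and 3.89, 2.81 and 4.10 in the mutant mice. Within the minor isoforms, Myh1 outweighed Myh2 by 1.52 to 3.26 times in the Wt and by 6.05 to 8.70 times in the mutant mice. With the slow myosin Myh7 added to the sum, Myh7 made up 0.0152%, 1.02% and 0.470% in the Wt and 2.62%, 2.79% and 2.42% in the mutant mice.

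**Figure D2:**
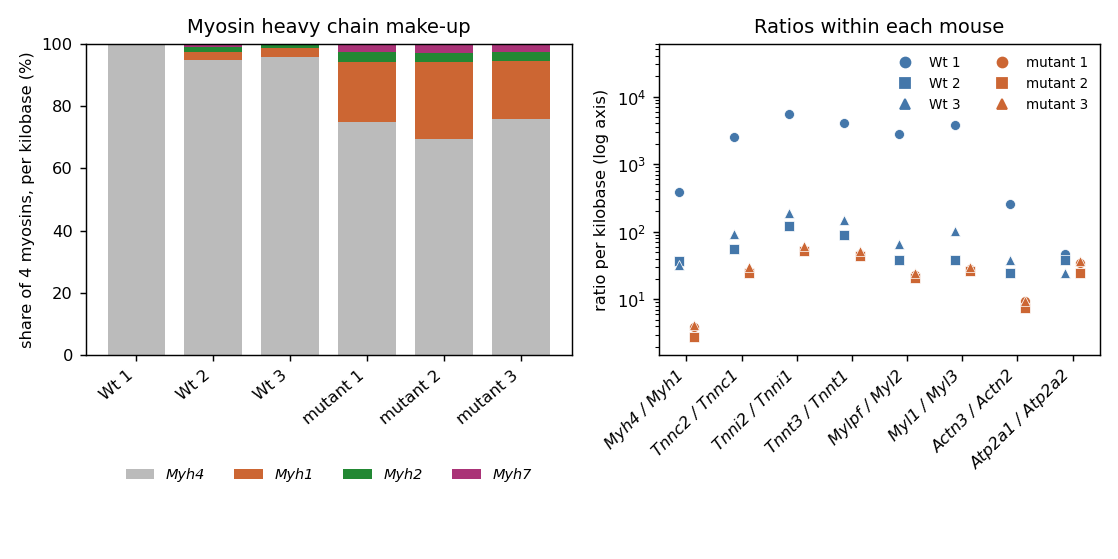
Left, the share of each of 4 myosin heavy chains in their sum per kilobase, as a stacked bar for each mouse, and right, ratios of a fast-fibre gene to another gene per kilobase on a log axis, with 1 point per mouse. Myh4 makes up 95.0% to 99.6% in the Wt mice and 69.6% to 76.0% in the mutant mice, and 7 of the 8 ratios are lower in all mutant mice than in all Wt mice. Nothing is read from that count, since the share over other pairs of genes was not computed.

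Fast troponins exceeded their slow partners in all 6 mice, but by less in the mutant. Tnnc2 per kilobase was 2516, 55.2 and 93.3 times Tnnc1 for Wt mice 1 to 3 and 25.3, 24.8 and 30.4 times for mutant mice 1 to 3. Tnni2 exceeded Tnni1 by 121 to 5510.4 times in the Wt and by 51.5 to 61.9 times in the mutant mice. Tnnt3 exceeded Tnnt1 by 90.3 to 4096 times in the Wt and by 43.8 to 51.5 times in the mutant mice. In each case Wt mouse 1 stood far above the others, being the mouse with the least of each slow transcript, and the genotypes did not overlap. That mouse had only 13 reads of Tnnc1, 10 of Tnni1 and 21 of Tnnt1, so the size of its ratios is uncertain.

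Light chains and alpha-actinin gave the same order. Mylpf was 38.0 to 2809 times Myl2 in the Wt and 21 to 24.4 times in the mutant mice, and Myl1 was 38.1 to 3804 times Myl3 against 26 to 30.3 times. The highest value of each was that of Wt mouse 1, which had only 13 reads of Myl2 and 5 of Myl3. Actn3 was 24.4 to 254 times Actn2 in the Wt and 7.53 to 9.55 times in the mutant mice. The pumps were the exception, since Atp2a1 was 24.3 to 47.4 times Atp2a2 in the Wt and 24.4 to 36.4 times in the mutant mice. Atp2a2, the slow-fibre pump SERCA2, is also the general pump of cells other than muscle.

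Skeletal actin, Acta1, is shared by fast and slow fibres, and the members were also set relative to it in each mouse, a scale chosen after the values were seen. It was at 4108, 3806 and 1955 normalized CPM for Wt mice 1 to 3 and at 5948, 3946 and 5867 for mutant mice 1 to 3. Its own log2 fold change was 0.72 ± 0.39 (SE), with an adjusted p of 0.308 by limma. On this scale the mice of a genotype drew close together in the 8 genes other than Myh1 and Myh2, and the direction of 6 genes turned.

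Relative to Acta1, Myh4 stood at 276%, 255% and 259.9% in the Wt and at 149%, 134% and 158% in the mutant mice, a log2 difference of -0.85 with no overlap. Myh1 stood at 0.758%, 7.34% and 8.47% in the Wt and at 40.4%, 50.3% and 40.7% in the mutant mice, a log2 difference of 3.59. Myh2 was likewise higher, by a log2 difference of 1.87, and Mylpf by 0.26, both without overlap.

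Atp2a1 was at 122.5 ± 2.22% of Acta1 in Wt and 90.8 ± 3.60% in mutant mice, and Actn3 at 36.3 ± 2.39% and 26.2 ± 1.84% (SD, n = 3). Their log2 differences of -0.43 and -0.47 were opposite in sign to the fold changes on the deposited scale, and no mice overlapped. Tnni2 (-0.25), Tnnc2 (-0.12) and Myl1 (-0.11) also turned negative without overlap. Tnnt3 turned as well, to -0.03, with overlap. Acta1 itself was higher in the mutant on average, which lowers the mutant values of any gene on this scale. Neither scale therefore shows that a gene did not change. The share of all tested genes without overlap on this scale was not computed, so nothing is read from how many members had none.

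**Figure D3:**
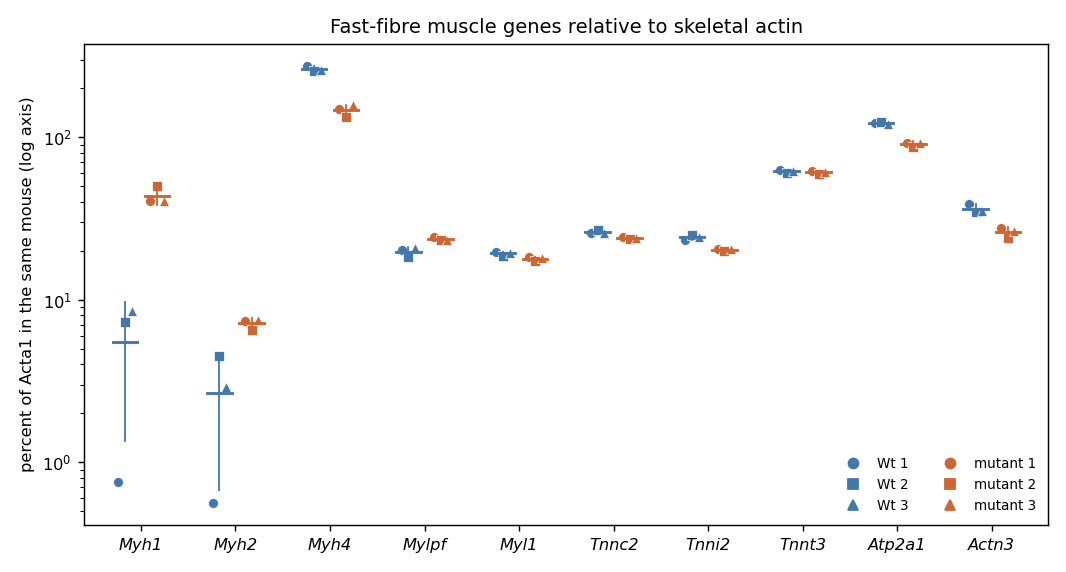
The 10 fast-fibre genes as a percent of Acta1 in the same mouse, on a log axis, with 1 point per mouse (blue Wt, orange mutant), a bar at the mean and a line of 1 SD either way. Mice of a genotype nearly coincide for the 8 genes other than Myh1 and Myh2, and Myh4, Atp2a1 and Actn3 of the mutant mice lie below those of all Wt mice.

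Ratios among the members themselves were also tight. Myh4 per kilobase was 3.41, 3.57 and 3.54 times Actn3 for Wt mice 1 to 3 and 2.58, 2.67 and 2.87 times for mutant mice 1 to 3. Mylpf was 1.42, 1.45 and 1.6 times Actn3 in the Wt and 2.39, 2.62 and 2.41 times in the mutant mice. The ratio of Atp2a1 to Actn3, 2.63 to 3.02 in the Wt and 2.79 to 2.99 in the mutant mice, was the only 1 of the 7 ratios to Actn3 computed that overlapped. That of Tnni2 was barely apart, at 1.406 in the highest Wt and 1.425 in the lowest mutant mouse. The share of all tested genes without overlap relative to Actn3 was not computed, so nothing is read from that count.

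Ordered by mean level per kilobase in Wt mice, the genes ran Myh4 (1447 ± 539), Tnnt3 (1287 ± 456), Atp2a1 (1163 ± 425), Tnnc2 (1072 ± 387), Mylpf (607 ± 206), Tnni2 (531 ± 186), Actn3 (414 ± 160.2), Myl1 (305 ± 108), Myh1 (25 ± 19.6) and Myh2 (11.7 ± 10.9). In the mutant the order was Tnnt3 (2023 ± 465), Tnnc2 (1576 ± 357), Atp2a1 (1380.1 ± 344), Myh4 (1297 ± 365), Mylpf (1171 ± 271), Tnni2 (714 ± 162), Actn3 (478 ± 131), Myl1 (454 ± 110.1), Myh1 (356 ± 37.2) and Myh2 (53.2 ± 14.9). All are normalized CPM per kilobase of summed exon length (SD, n = 3), and the ranks depend on that length. With the longest transcript as length, Tnnt3 was 4.32, 4.69 and 4.72 times Actn3 for Wt mice 1 to 3. Myh4 was then 3.39, 3.56 and 3.52 times Actn3, below Tnnt3, and Myl1 was 1.35, 1.45 and 1.47 times Actn3, above it. Apart from the step from Tnnc2 to Mylpf and that from Myl1 to Myh1 in the Wt, and the steps from Mylpf to Tnni2, from Tnni2 to Actn3 and from Myh1 to Myh2 in the mutant, neighbours in these orders differed by no more than the larger of their SDs.

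Over the 6 mice the members fell into 2 patterns, described here by Pearson correlations of log2 values without a test, since all points share the same 6 libraries. Myh1 and Myh2 followed each other (r = 0.97). The other 8 genes followed each other with a median r of 0.94 over 28 pairs, the lowest being 0.49, between Myh4 and Mylpf. The split was not clean, since Mylpf stood closer to Myh1 (r = 0.64) and Myh2 (r = 0.67) than to Myh4. Myh1 against the 8 ranged from -0.25 to 0.64. Each member was also set against the mean of the other 9, and Myh4 was least like it (r = 0.29) and Mylpf most (r = 0.92). Outside the list, the genes most like the mean of the members, of 14947 compared, included Ankrd23, Myot, Coq8a, Gm17655, Slc38a3, Nos1, Aqp4, Camk2b and Tead1, all with r of at least 0.99.

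Other genes of the muscle fibre were taken from 5 lists of 74 genes, of which 69 were tested. By limma 14 of them rose in the mutant and none fell, against 5.5% and 2.61% of all tested genes. The log2 fold change was above 0 in 68 of the 69, against 7332 of all 16868 tested genes. The count that rose was 5 to 12 when 1 mouse was left out at a time, the lowest without mutant mouse 3, and 26 by the Wald test of DESeq2. No gene was lower by edgeR, by limma-voom or by DESeq2, and 1 (of the myogenic regulators) was lower at an unadjusted p under 0.05. Some of these genes (Myl2, Tnni1, Myh7, Sln and Ankrd1), as well as Myh1 and Myh2, had been picked by the study from these same libraries, and so are not independent evidence of direction. The others were read in the same 6 libraries, so the 69 genes are not independent of each other either.

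Among 14 other fast-fibre genes, 2 rose and none fell, with a median log2 fold change of 0.39. Both that rose are myosins of developing muscle in the same cluster. Myh8, the perinatal myosin, was at 1.51, 1.02 and 1.64 normalized CPM in the Wt and 11.9, 8.80 and 10.7 in the mutant mice, a log2 fold change of 2.54 ± 0.19 (SE) and an adjusted p of 0.00166 by limma. Myh3, the embryonic myosin, was at 0.503, 0.729 and 0.337 in the Wt and 5.61, 3.05 and 3.60 in the mutant mice, 2.14 ± 0.26 with an adjusted p of 0.0057. Myh8 kept its call under all 16 alternatives and Myh3 under all 15 that tested it. Of the 50-base stretches of Myh8 and Myh3, 78.6% and 95.2% are in no other gene. Both share stretches with the far more abundant Myh1, Myh2 and Myh4, so reads of the latter may be counted in Myh8 and Myh3. That share was not tested. Neither Ckm (muscle creatine kinase, 0.18 ± 0.38) nor Pvalb (the calcium buffer parvalbumin, 0.23 ± 0.34) passed.

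Among 12 slow-fibre genes, 3 rose and none fell, with a median log2 fold change of 3.22, and 11 did not overlap between the genotypes (14.9% of all tested genes were so, higher in the mutant). Casq2, the calcium store protein of slow and heart muscle, had a log2 fold change of 2.42 ± 0.27 (SE, adjusted p of 0.00455 by limma) and kept its call under all 16 alternatives. Mybpc1, slow myosin-binding protein C, had 3.20 ± 0.73 (adjusted p of 0.0484) and Myh7b had 1.51 ± 0.34 (adjusted p of 0.0461). The call of Mybpc1 ended without Wt mouse 3 or any mutant mouse (adjusted p of up to 0.139), and that of Myh7b whichever mouse was left out (up to 0.133). With all mice kept, the calls also ended in 5 settings for Mybpc1 and 4 for Myh7b, edgeR and limma-voom among them.

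The slow partners of the fast-fibre genes had large differences that did not pass, with the Wt mice far apart. Myh7 was at 2.47, 150.1 and 35.8 normalized CPM for Wt mice 1 to 3 and at 444, 303 and 422 for mutant mice 1 to 3, a log2 fold change of 3.93 ± 1.31 (SE) with an adjusted p of 0.13 by limma. Wt mouse 1 was likewise lowest in Tnnc1, Tnni1, Tnnt1, Myl2 and Myl3, whose log2 fold changes were 3.10 to 3.73 with adjusted p of 0.110 to 0.145.

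Of 20 genes shared by striated fibres, 6 rose and none fell, with a median log2 fold change of 0.85. The largest rises were those of Csrp3, the muscle LIM protein, at 4.02 ± 0.69 (SE, adjusted p of 0.0192 by limma) and Actn2, the alpha-actinin of all fibres, at 3.02 ± 0.69 (adjusted p of 0.0496). Csrp3 lost its call without Wt mouse 3, mutant mouse 2 or mutant mouse 3 (adjusted p of 0.0659 to 0.0745), and Actn2 without any mouse other than Wt mouse 2 (0.0536 to 0.151). The call of Actn2 also ended in 6 settings that kept all mice, edgeR and limma-voom among them. Myoglobin, Mb, was at 12.7, 142 and 51.5 normalized CPM in the Wt and 326, 222 and 328 in the mutant mice, and did not pass (2.64 ± 0.80, adjusted p of 0.104). Without Wt mouse 2 its adjusted p was 0.0494.

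Of 14 tested genes of excitation and the nerve-muscle junction, 3 rose and none fell, with a median log2 fold change of 0.47. Sln, sarcolipin, which inhibits the SERCA pumps, was at 0.0419, 1.02 and 0.673 normalized CPM in the Wt and 8.54, 5.97 and 5.99 in the mutant mice, 2.87 ± 0.39 (SE) with an adjusted p of 0.00895 by limma. Chrna1, the alpha subunit of the muscle acetylcholine receptor, and Musk, the kinase that clusters it, rose by 1.01 ± 0.22 and 0.76 ± 0.17 (adjusted p of 0.0437 and 0.0483). Both calls ended whichever mouse was left out, with adjusted p of up to 0.150 and 0.165, and in 3 and 6 settings that kept all mice. The release channel Ryr1 and the voltage sensor Cacna1s of fast and slow fibres were at 0.29 ± 0.35 and 0.40 ± 0.34. None of the 9 tested myogenic regulators was called by limma in either direction, with 3 higher and 1 lower at an unadjusted p under 0.05 and 1 called by DESeq2, and their median was 0.42.

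**Figure D4:**
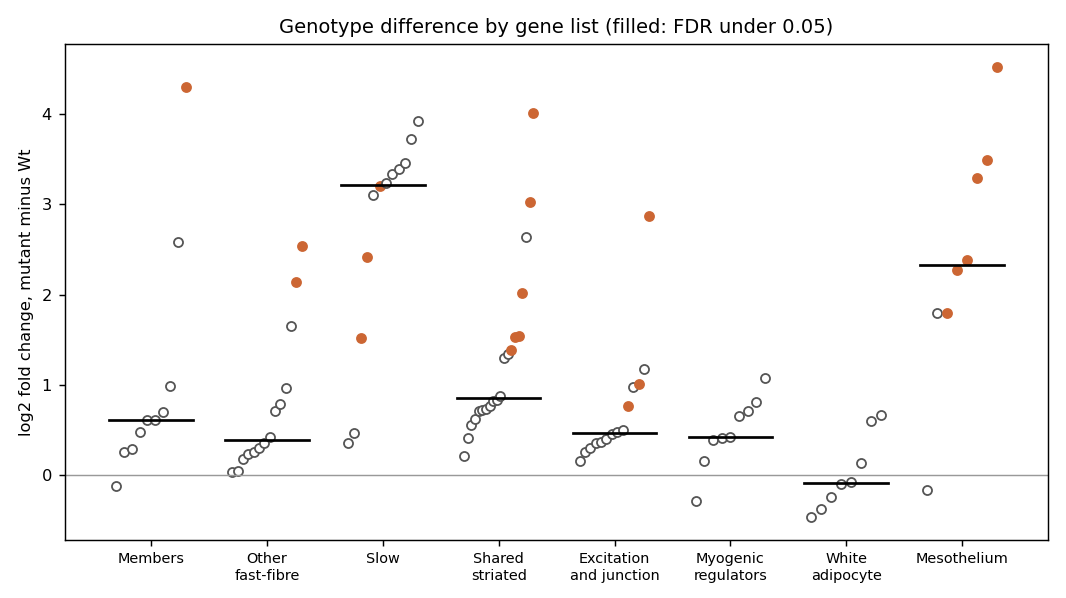
Log2 fold change of each tested gene (mutant minus Wt) by list, with filled points for genes called by limma and a bar at the median of the list. The median is 0.61 for the members, 3.22 for the slow genes, 0.85 for the shared striated genes and -0.09 for the white adipocyte genes.

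The myosin cluster also holds transcripts from the opposite strand, which were looked at after their values were seen. Myhas overlaps Myh1 by 515 exonic bases, and its own start lies 456 bases before the GENCODE start of Myh4. It was at 5.87, 4.86 and 4.25 normalized CPM for Wt mice 1 to 3 and at 90.8, 84.3 and 89.7 for mutant mice 1 to 3. Its log2 fold change was 4.02 ± 0.13 (SE) with an adjusted p of 0.000371 by limma, and the call held under all 16 alternatives. The highest Wt mouse was 1.38 times the lowest for Myhas and 8.97 times for Myh1, and among the mutant mice the ranges were 1.08 and 1.21 times.

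Another, 9430073C21Rik, overlaps Myh2 by 237 exonic bases. It had 1, 7 and 3 reads in the Wt and 172, 126 and 196 reads in the mutant mice, a log2 fold change of 3.65 ± 0.26 (SE) with an adjusted p of 0.0015 by limma. Myh2 itself was on average 57.1 times and Myh1 25.9 times as high as the transcript opposite. Both transcripts also share 50-base stretches with Myh1, Myh2, Myh4 and Myh8. Reads from shared stretches cannot be told apart without strand, and their part in these values was not tested. At the edges of the cluster, 2310065F04Rik next to Myh3 had a log2 fold change of 1.01 ± 0.32 (adjusted p of 0.115), and Myh13, the myosin of eye muscle, one of 0.03 ± 0.26 (adjusted p of 0.941).

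**Figure D5:**
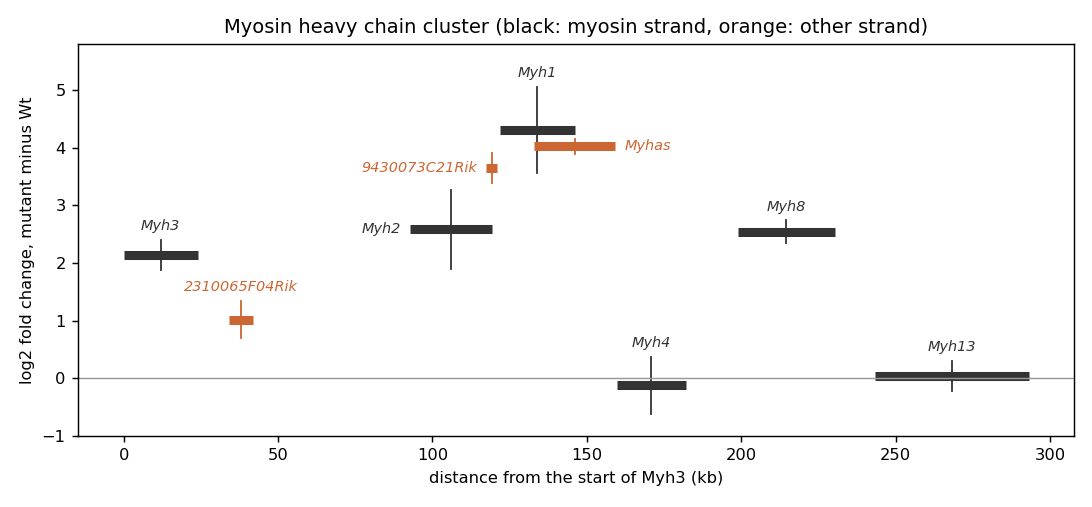
Log2 fold change (mutant minus Wt, vertical line of 1 SE either way) of each gene of the chromosome 11 myosin cluster against its extent in kilobases from the start of Myh3, with the myosins in black and transcripts of the other strand in orange. Myh1 (4.31), Myhas (4.02), 9430073C21Rik (3.65), Myh2 (2.58), Myh8 (2.54) and Myh3 (2.14) stand high, 2310065F04Rik (1.01) lies between, and Myh4 (-0.12) and Myh13 (0.03) lie near 0.

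Markers of other cells in an inguinal dissection were read beside the muscle genes. Of the mesothelium list, 6 of 8 genes rose and none fell, and its summed level was 4.81 to 32.8 normalized CPM in the Wt and 37.7 to 77.2 in the mutant mice. The highest Wt sum was that of Wt mouse 1 and was mostly Krt19, at 28.5, 2.72 and 2.94 in the Wt mice. Krt19 overlapped between the genotypes (-0.17 ± 0.86, SE). Upk3b and Msln, membrane proteins of the mesothelium, rose by 4.53 ± 0.51 and 3.49 ± 0.35 on the log2 scale (SE, adjusted p of 0.00487 and 0.00304 by limma). Msln, Bnc1 and the gene Wt1 of this list, and Ucp1 named below, had been picked by the study from these same libraries. They are therefore not independent evidence of direction, and the other genes of these lists were read in the same 6 libraries. Of 5 tested tendon and fascia genes, Thbs4 and Scx rose (1.22 ± 0.16 and 0.90 ± 0.20, adjusted p of 0.00744 and 0.0468), and the list summed to 20 to 42.8 in the Wt and 41.9 to 51.5 in the mutant mice. The call of Scx ended whichever mouse was left out (adjusted p of up to 0.139) and in 4 settings that kept all mice. Of 3 tested satellite cell genes, Chrna1 rose, the receptor gene already counted above, and the list summed to 3.62 to 5.69 in the Wt and 6.55 to 9.69 in the mutant mice. Pax7, which defines these cells, overlapped (0.15 ± 0.33, adjusted p of 0.793 by limma), as did Myf5 and Calcr, which had too few reads to be tested, and Cdh15 did not pass (0.81 ± 0.26, adjusted p of 0.114). The part of these cells in the muscle differences was not tested.

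None of the 8 white adipocyte genes was called by limma, with 2 higher and none lower at an unadjusted p under 0.05 and 1 called higher by DESeq2, and their sum was 13952 to 19924 in the Wt and 12047 to 18932 in the mutant mice. Of 7 tested brown or beige genes, 4 were lower and none higher at an unadjusted p under 0.05 by limma. The list summed to 132 to 180.0 in the Wt and 89.0 to 138 in the mutant mice. Only Ucp1 was called, and fell by 1.69 on the log2 scale (SE 0.29, adjusted p of 0.0187 by limma). That call ended without Wt mouse 1, Wt mouse 3, mutant mouse 2 or mutant mouse 3 (adjusted p of 0.0571 to 0.0821). Smooth muscle (8 tested), lymphocyte (8), epithelial (7) and Schwann cell genes (8) gave no call by limma. At an unadjusted p under 0.05 there were 3 higher in smooth muscle, 1 lower in epithelium and 1 higher in Schwann cells, and DESeq2 called 2, 1 and 1 of them.

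The lymphocyte list summed to 1015 to 1781 in the Wt and 499 to 1429.6 in the mutant mice, lowest in mutant mouse 1. The sum over the smooth muscle list was 719 to 936 in the Wt and 948 to 1109 in the mutant mice. For Schwann cells it was 368 to 489 and 417 to 539, and for epithelium 13.7 to 86.0 and 12.1 to 40.9. Of 2 tested heart genes, 1 rose, Myl4 (0.73 ± 0.13, SE, adjusted p of 0.0232 by limma), which embryonic skeletal muscle also makes, and the list summed to 10.4 to 11.9 in the Wt and 15.6 to 18.0 in the mutant mice. The call of Myl4 ended without any mouse other than mutant mouse 3, at an adjusted p of up to 0.103.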

How the data were processed

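RNA-seq of inguinal fat from 3 mutant and 3 Wt mice was read from the values that the authors deposited, a normalized signal in CPM with a further scaling factor for each mouse, in 1 table per genotype. The submitters' processing notes name Bowtie2 2.1.0, RSEM 1.2.15, edgeR and the build mm10, without their roles. Read length, use of strand and whether both tables were scaled together are not given in the sources used here. All values of a mouse were whole multiples of a single step (tolerance 0.01 of a read), so the reads could be recovered, 19607423 to 24228381 per mouse.

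The genotypes were compared with limma 3.58.1 (R 4.3.3) on log2(value + 0.5), with the prior variance following the mean level, a scale that understates changes of low genes, with Benjamini-Hochberg adjustment at an FDR of 0.05 over the 16868 genes kept by filterByExpr of edgeR 4.0.16. Alternatives were size factors of DESeq2 1.42.0 computed over all 6 mice (1360 genes called, 1322 of them among the 1368), library size only, edgeR's quasi-likelihood test, the Wald test of DESeq2 and limma-voom on the recovered reads, pseudocounts of 0.1 and 1, other filters, a replicate block, an FDR of 0.1, longest transcripts and leaving out each mouse. Values relative to Acta1 were added after seeing the data. The fit was tested on simulated data.

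The 10 members and all gene lists were chosen with earlier results of these data known. Of each other list the text names the 2 called genes with the largest change in each direction, all of 5 or fewer called, and genes that define it or pair with a member. Read counts of mice of a genotype differed well beyond counting error (19.3 to 64.9 as chi-square over its degrees of freedom) and were kept as separate samples. With 3 mice against 3 an exact permutation test cannot go below 0.1, so none was used. GENCODE M21 on GRCm38 held 55480 of the 55573 identifiers. In 27 rows a symbol had become a date. Promoters came from RefSeq (GRCm38.p6). Some items that these rules would name are not reported here.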

Additional observations from a re-analysis of the deposited data

How the results depend on the processing

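Limits first. The 10 members were chosen on this contrast, the 3 mice of a genotype vary in muscle transcripts, and calls near the threshold move with a single mouse. The labels do not say whether mouse numbers pair the mice, and the main fit treated them as unpaired. Deviations of same-numbered mice from the mean of their genotype correlated at 0.69, 0.06 and 0.56, and what such mice may share was not tested. The replicate block raised the calls to 1733 higher and 2330 lower. It gave 17 higher and 6 lower genes in the cell type lists and 1 lower in the other muscle lists, and called the same member, Myh1. Depth limits only genes near 3 reads.

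Of all genes, 928 were called higher and 440 lower. Requiring 10 reads in every mouse gave 345 and 253. The lower calls were 265 with library size only, 291 with edgeR, 287 with limma-voom, 293 with no filter, 782 with DESeq2's Wald test and 934 at an FDR of 0.1. Leaving out 1 mouse gave 493 to 740 higher and 61 to 265 lower calls, fewest higher without Wt mouse 2 and fewest lower without Wt mouse 2 or 3. Members called higher were 2 with DESeq2, 2 at an FDR of 0.1, 0 with limma-voom and 0 to 2 with 1 mouse left out. In the other muscle lists, 14 became 26 with DESeq2, 6 with 10 reads in every mouse, 9 with a pseudocount of 0.1 and 5 to 12 with 1 mouse left out. In the cell type lists, 10 higher became 3 with 10 reads in every mouse, and 1 lower became 2 with DESeq2 and 0 to 2 with 1 mouse left out. The cause was not tested, beyond the fewer genes or mice that some settings hold.

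With the longest transcript as length, the mean share of Myh2 in mutant mice was 3.58%, and the mutant medians of Tnnc2 over Tnnc1 and Tnnt3 over Tnnt1 were 20.05 and 33.4, all still apart from the Wt values. The 9 members other than Myh4 kept a positive log2 fold change, and Myh4 a negative one, under the 10 alternatives that kept all mice. Relative to Acta1, which was higher in the mutant on average, 6 members that were positive became negative, 5 of them without overlap. The share of all tested genes that did so on that scale was not computed, so nothing is read from those counts. No called gene that the text names reversed.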

Other observations

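Further genes of developing or slow muscle stood apart between the genotypes and were picked after their values were seen, so they carry no weight as a list. Myl6b, an essential light chain of slow and developing fibres, was at 6.41, 5.93 and 5.22 normalized CPM for Wt mice 1 to 3 and at 17.8, 13.2 and 15.1 for mutant mice 1 to 3. Its log2 fold change was 1.31 ± 0.15 (SE, adjusted p of 0.00504 by limma), and the call held under all 16 alternatives. Tnnt2, the troponin T of heart and embryonic skeletal muscle, was at 0.587, 0.584 and 1.43 in the Wt and 3.62, 4.89 and 3.09 in the mutant mice (1.71 ± 0.29, adjusted p of 0.018). That call ended without Wt mouse 1, Wt mouse 2 or mutant mouse 2 (adjusted p of 0.0578 to 0.0812). Actc1, cardiac actin, which embryonic skeletal muscle also makes, was at 3.64, 1.99 and 1.77 in the Wt and 8.86, 5.16 and 16.7 in the mutant mice and did not pass (1.76 ± 0.44, adjusted p of 0.0616, and from 0.000592 to 0.197 over the alternatives). Myl6b and Actc1 had also been picked by the study from these libraries.

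Thra, which carries the knock-in and whose transcript count does not show the changed codons, was at 147, 128 and 117 normalized CPM in the Wt and 169.8, 139.9 and 137 in the mutant mice (0.19 ± 0.13, adjusted p of 0.404 by limma).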
